A study of Mus musculus with 4 samples.

Results

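The regions described here were 263 wide stretches of open chromatin that every library shared and that lay at an end of 1 protein-coding gene. They came from ATAC-seq of mouse PVH, the hypothalamic paraventricular nucleus. In this assay a transposase cuts accessible DNA and tags the pieces for sequencing. Peaks of the 4 libraries on chromosomes 1 to 19 were merged where they shared at least 1 bp, which gave 65969 regions. A merged region was kept when all 4 libraries had a peak in it, when it was at least 1200 bp wide, and when it touched the window of 1000 bp to each side of an end of exactly 1 of 20665 RefSeq protein-coding genes. Of the 65969 regions, 14331 were shared by all 4 libraries and 6447 of these lay at an end of 1 gene. The 263 broad regions were 4.08% of those 6447 and 0.399% of all merged regions, and they lay at 263 different genes. The regions were chosen by 3 measured properties, their merged width, their presence in all 4 libraries and their place at a gene end, so width and presence are given below as a description and not as a result.

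All mice were 12 weeks old and, in control and deleted groups alike, carried the alleles Otp fl/fl and Ai14, a Cre-dependent fluorescent reporter. Otp encodes a homeodomain transcription factor of hypothalamic neuroendocrine neurons. The 2 control libraries came from mice injected with AAV-GFP, and the other 2 from mice injected with AAV-Cre, a virus whose recombinase removes the floxed part of Otp in the cells it infects. The tissue was dissected 4 weeks after injection. The labels name no promoter for the virus and no sorting of infected cells, and give no animal for any library. Differences between replicates may therefore be technical. The deposited library lists held 23384 to 57682 peaks, and the longest was that of AAV-GFP replicate 1. Sequencing depth is unknown because the lists hold no read counts. An end of Otp itself carried a peak in both AAV-GFP libraries and in AAV-Cre replicate 2 but not in AAV-Cre replicate 1, which does not test the deletion, since the sources used here do not place the floxed part. Of the defining markers of cell types, Snap25, Syt1, Map2 and Stmn2 of neurons, Gfap and Slc1a2 of astrocytes, and Foxj1 and Rax of ependyma carried a peak at a gene end in every library. These were 4 of 5 neuronal, 2 of 5 astrocyte and 2 of 3 ependymal markers, while Rbfox3, Aqp4 and Ccdc153 of the same types had no such peak in any library. None of 6 PVH, 4 oligodendrocyte or 4 precursor markers had one in every library, with Mog, Mag, Sox10, Cspg4 and Avp at 0 throughout. All 4 microglial and all 3 vessel markers had none in any library.

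Open chromatin at a gene start is the stretch where nucleosomes give way to the transcription machinery and to sequence-specific factors. Promoters that are rich in CpG dinucleotides, many of them at genes used by most cells, tend to be accessible over a longer stretch than CpG-poor promoters. A peak list records where this opening was detected and how strongly, but not whether the gene was transcribed. In a bulk tissue, fewer open cells and less opening in each cell cannot be told apart.

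Promoter sequences of 7 genes are shown first because the results turn on these regions. Each is the RefSeq sequence (build GRCm38.p6, which is mm10) from 250 bases before to 50 bases after the annotated gene start, read 5′ to 3′ on the strand of the gene, with every CpG in capitals. The first pair belongs to the widest regions that lay over a promoter in the table. Pik3r1, which encodes the regulatory subunit of phosphoinositide 3-kinase, has a region at chr13:101767039-101768946 and holds 34 CpGs in the printed bases. Cited2, a transcriptional co-regulator that binds CBP and p300, has a region at chr10:17722015-17723818 and holds 29 CpGs.
Pik3r1: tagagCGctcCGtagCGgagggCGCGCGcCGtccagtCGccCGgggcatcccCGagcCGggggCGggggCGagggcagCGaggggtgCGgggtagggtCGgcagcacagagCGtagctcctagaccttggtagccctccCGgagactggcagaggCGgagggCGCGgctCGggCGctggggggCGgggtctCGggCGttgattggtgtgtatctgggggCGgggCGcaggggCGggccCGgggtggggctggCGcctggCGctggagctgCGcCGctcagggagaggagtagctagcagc
Cited2: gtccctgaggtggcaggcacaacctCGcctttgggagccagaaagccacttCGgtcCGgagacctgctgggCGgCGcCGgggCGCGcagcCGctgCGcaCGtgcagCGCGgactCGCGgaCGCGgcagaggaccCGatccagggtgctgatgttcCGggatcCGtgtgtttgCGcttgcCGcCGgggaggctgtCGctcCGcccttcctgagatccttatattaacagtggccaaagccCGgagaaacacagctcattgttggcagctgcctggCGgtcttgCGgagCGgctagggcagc

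The next pair belongs to regions among the 10 with the strongest mean rank. Rap2a, a small GTPase of the RAS family, has a region at chr14:120477224-120478423 that reached 213 of the 300 printed bases and ended before the annotated start. Gsk3b, the kinase of WNT and insulin signalling, has a region at chr16:38088211-38089593 that covered all 300 bases. The Rap2a promoter holds 47 CpGs, the most among the 7 sequences, and the Gsk3b promoter holds 21.
Rap2a: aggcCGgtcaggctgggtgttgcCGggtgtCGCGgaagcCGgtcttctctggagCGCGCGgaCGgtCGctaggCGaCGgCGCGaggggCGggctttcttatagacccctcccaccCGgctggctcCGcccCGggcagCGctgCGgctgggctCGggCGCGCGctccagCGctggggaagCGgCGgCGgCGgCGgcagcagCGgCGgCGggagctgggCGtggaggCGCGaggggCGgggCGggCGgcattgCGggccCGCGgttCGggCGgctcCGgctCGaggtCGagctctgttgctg
Gsk3b: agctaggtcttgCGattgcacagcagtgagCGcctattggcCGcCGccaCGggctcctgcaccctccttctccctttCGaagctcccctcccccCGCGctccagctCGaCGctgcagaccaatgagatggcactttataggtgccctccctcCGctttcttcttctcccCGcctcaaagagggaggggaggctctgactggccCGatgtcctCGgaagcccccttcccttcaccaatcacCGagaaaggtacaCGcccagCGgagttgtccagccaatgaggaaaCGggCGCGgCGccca

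The last set holds the member with the largest move in rank in each direction and a chaperone. Mturn, which encodes maturin, a protein of neural differentiation, has a region at chr6:54681382-54682597. St6gal2, a sialyltransferase, has a region at chr17:55445168-55446461 and only 13 CpGs in its promoter. Dnajb1, the heat-inducible partner of HSP70 chaperones, has a region at chr8:83607636-83608883 and 36 CpGs.
Mturn: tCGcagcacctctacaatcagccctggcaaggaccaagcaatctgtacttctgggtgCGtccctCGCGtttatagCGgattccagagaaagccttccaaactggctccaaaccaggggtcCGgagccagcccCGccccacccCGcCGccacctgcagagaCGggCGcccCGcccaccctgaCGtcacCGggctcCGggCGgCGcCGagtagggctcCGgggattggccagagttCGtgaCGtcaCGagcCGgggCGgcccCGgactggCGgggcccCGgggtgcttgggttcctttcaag
St6gal2: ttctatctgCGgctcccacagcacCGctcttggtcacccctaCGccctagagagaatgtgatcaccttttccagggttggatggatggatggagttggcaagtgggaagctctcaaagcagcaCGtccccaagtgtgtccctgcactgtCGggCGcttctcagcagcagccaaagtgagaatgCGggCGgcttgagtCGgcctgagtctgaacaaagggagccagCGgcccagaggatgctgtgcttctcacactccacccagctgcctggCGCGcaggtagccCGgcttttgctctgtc
Dnajb1: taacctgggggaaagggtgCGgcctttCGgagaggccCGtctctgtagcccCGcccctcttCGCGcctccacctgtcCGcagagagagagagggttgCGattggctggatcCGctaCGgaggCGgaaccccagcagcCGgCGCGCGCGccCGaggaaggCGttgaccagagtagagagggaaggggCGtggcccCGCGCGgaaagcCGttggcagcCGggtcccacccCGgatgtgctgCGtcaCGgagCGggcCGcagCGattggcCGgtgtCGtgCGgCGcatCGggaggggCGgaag

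The merged width of the 263 regions had a median of 1310 bp, with quartiles of 1240 and 1403.5 bp and a range of 1200 to 2649 bp. Of these, 123 lay under 1300 bp, 37 reached 1500 bp or more and 3 reached 2000 bp or more. Just inside the threshold were the regions of Rap2a, Tarbp1 and Usp48 at 1200 bp, and just outside were those of Itgb8 and Crem at 1199 bp and Yars2 at 1198 bp. Few of them were 1 broad peak in every library. A single peak of at least 1200 bp occurred in at least 1 library for 116 regions and in none for 147. Only Rbm15, which encodes an RNA-binding protein of the m6A methylation complex, and Crlf2, a cytokine receptor subunit, had such a peak in all 4 libraries. At Rbm15 the widest peak measured 1213 and 1252 bp in the AAV-GFP libraries and 1438 and 1429 bp in the AAV-Cre libraries. At Crlf2 it measured 2033, 2045, 1805 and 1240 bp in the same order. The width of those 147 came from neighbouring or shifted peaks joined across libraries. In 203 regions at least 1 library had more than 1 peak, and 60 had a single peak in every library.

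The strongest summits of the 4 libraries lay close together in many regions but less often than in narrow ones. The outermost of the 4 summits were a median of 176 bp apart, against 102 bp in the 6184 shared regions at 1 gene end that were narrower than 1200 bp. All 4 summits fell within 200 bp in 138 of the 263 regions (52.5%), against 76.3% of narrower regions. In 65 broad regions the summits were spread over more than 500 bp. This contrast is partly set by the choice on width.

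The 10 widest regions belonged to genes of several kinds. After Gm21119, a predicted gene with 2649 bp, came Crlf2 with 2156 bp, Lamc1 with 2039 bp, Pik3r1 with 1908 bp and Csf2ra with 1861 bp. Lamc1 encodes a laminin chain of the basement membrane, and Csf2ra a receptor subunit for the growth factor GM-CSF. Next were Kmt2e, of the histone methyltransferase family, with 1811 bp, the chaperone Hsp90ab1 with 1805 bp, Cited2 with 1804 bp, Garnl3 with 1796 bp and the ubiquitin-conjugating enzyme Ube2d3 with 1782 bp. Gm21119, like the members Vmn1r48 and Gm3696, belongs to a family of near-identical copies, so its peaks are uncertain. The Crlf2 and Csf2ra regions lay inside their genes and did not reach the annotated start.

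The widest regions ranked weaker by median than the other broad regions. Strength is given as a rank percentile: within each library the 14331 shared regions were ranked by the largest deposited −log10 p of their peaks, and 0 is the strongest. The mean percentile over the libraries had a median of 37.3 in the 226 regions under 1500 bp and 53.4 in the 37 wider ones, and single wide regions ranged from strong to weak. Cited2 stood at percentiles of 88.7 and 82.4 in the AAV-GFP libraries and 84.3 and 88.5 in the AAV-Cre libraries, so a very wide region was weak in all 4. Garnl3, a GTPase-activating protein of the RAP family, stood at 15.6, 5.48, 9.25 and 8.38 in the same order and was strong in all 4. Ube2d3 lay at 19.5, 16.5, 14.9 and 16.8, one of the most even sets of values among the wide regions. Pik3r1 was strong in AAV-GFP replicate 1, at 10.6, and far weaker in AAV-GFP replicate 2, at 65.5, while the AAV-Cre libraries gave 64.0 and 41.5. Its groups therefore overlapped.

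As a set, the broad regions ranked slightly ahead of the narrower ones. Their median percentile was 34.3 and 38.2 in the AAV-GFP libraries and 32.7 and 38.3 in the AAV-Cre libraries, against 39.3, 40.5, 42.9 and 43 for narrower regions. The median of the authors' fold enrichment was 9.17, 8.35, 7.19 and 7.19 in broad regions and 9.91, 8.77, 6.99 and 7.25 in narrower ones. The highest fold enrichment of a broad region was 20.9, 18.2, 15.0 and 14.8, while that of a narrower region, in a far larger set, was 55.2, 49.8, 50.7 and 48.5. No test was made, because a wider merged region has more peaks from which the largest is taken.

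**Figure D1:**
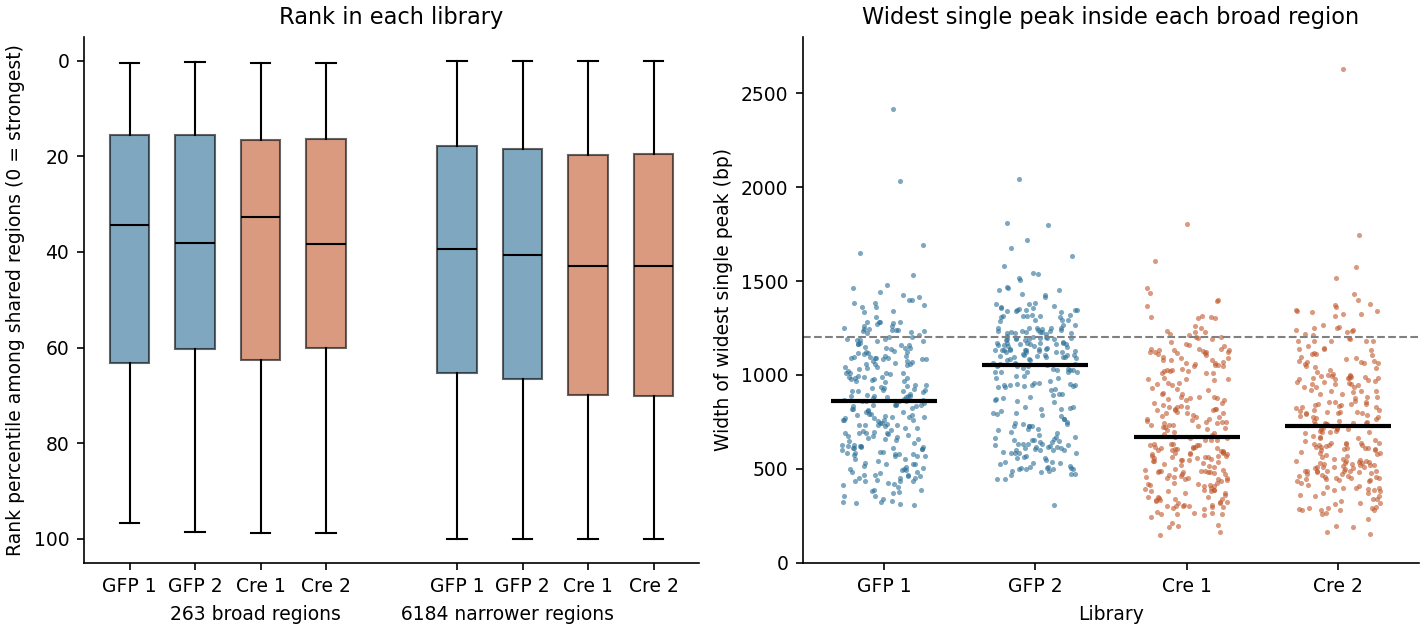
Left, rank percentile among 14331 shared regions in each library for the 263 broad and 6184 narrower regions (line, median; box, quartiles; whiskers, lowest and highest; 0 is the strongest). Right, width in bp of the widest single peak inside each broad region, 1 point per region, with a black line at the median and a dashed line at 1200 bp; most points lie under the dashed line in every library.

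The 10 strongest regions were chosen by their mean percentile over all 4 libraries, so a strong rank in both groups was set by the choice. Rap2a led with percentiles of 1.97 and 0.345 in the AAV-GFP libraries and 0.583 and 0.471 in the AAV-Cre libraries. Its fold enrichment was 12.5, 16.7, 14.2 and 14.8, and the groups overlapped. Ankhd1, which encodes an ankyrin repeat and KH domain protein, stood at 1.45, 0.973, 1.43 and 1.58. Gsk3b followed with 6.23, 0.680, 1.5 and 0.862, where only AAV-GFP replicate 1 was outside the first few percent. Behind these were Ifrd1, a transcriptional co-regulator, Serbp1, an mRNA- and ribosome-binding protein, Prkra, an activator of the double-stranded RNA kinase PKR, and Emsy, a chromatin-associated BRCA2 partner. Aco1, the cytosolic aconitase that doubles as an iron-responsive RNA-binding protein, and Clec11a, a secreted growth factor, were also among the 10. All 10 had percentiles of 6.23 or less in every library.

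Where the strand of the gene could be taken from the RefSeq promoter table, almost all broad regions lay at the start of their gene. The strand was known for 205 of 263 genes (77.9%), and 197 of these regions met the start, 6 met the end and 2 met both ends of a short gene. The share at a start was 97.1%, against 97% of narrower regions. The annotated start itself lay inside 184 of the 205 regions (89.8%, against 85.7% of narrower ones). The 6 regions at a 3′ end were those of Dapk3, a death-associated kinase, Bad, a promoter of apoptosis, Lor, a protein of the cornified skin layer, Vmn1r48, a pheromone receptor, Clec11a and Gm21119. The strongest of the 6 was Clec11a, at percentiles of 4.16, 6.07, 2.88 and 5.77 and with a fold enrichment of 10.4, 9.31, 9.70 and 8.45. It lay inside the gene, whose whole length was 3194 bp.

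Around the start, the broad regions extended a median of 612.5 bp upstream and 715.5 bp into the gene, against 343 and 336 bp for narrower regions. They reached farther into the gene than upstream in 103 of 184 cases (56.0%), against 48.8% of narrower regions. The strongest summit stayed just upstream of the start, at medians of -72.5 and -67 bp in the AAV-GFP libraries and -64.5 and -63.5 bp in the AAV-Cre libraries. In narrower regions these medians were -49, -45, -40 and -41 bp. More than 1 annotated start lay inside 23 of the 184 broad regions (12.5%), against 8.06% of narrower ones. An end of a long non-coding RNA gene lay inside 42 of the 263 regions (16%), against 9.85%, and wider regions have more room for both. The genes themselves were longer by median, at 36248 bp against 27732.5 bp. This did not hold for the 37 regions of 1500 bp or more, whose genes had a median of 26996 bp.

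**Figure D2:**
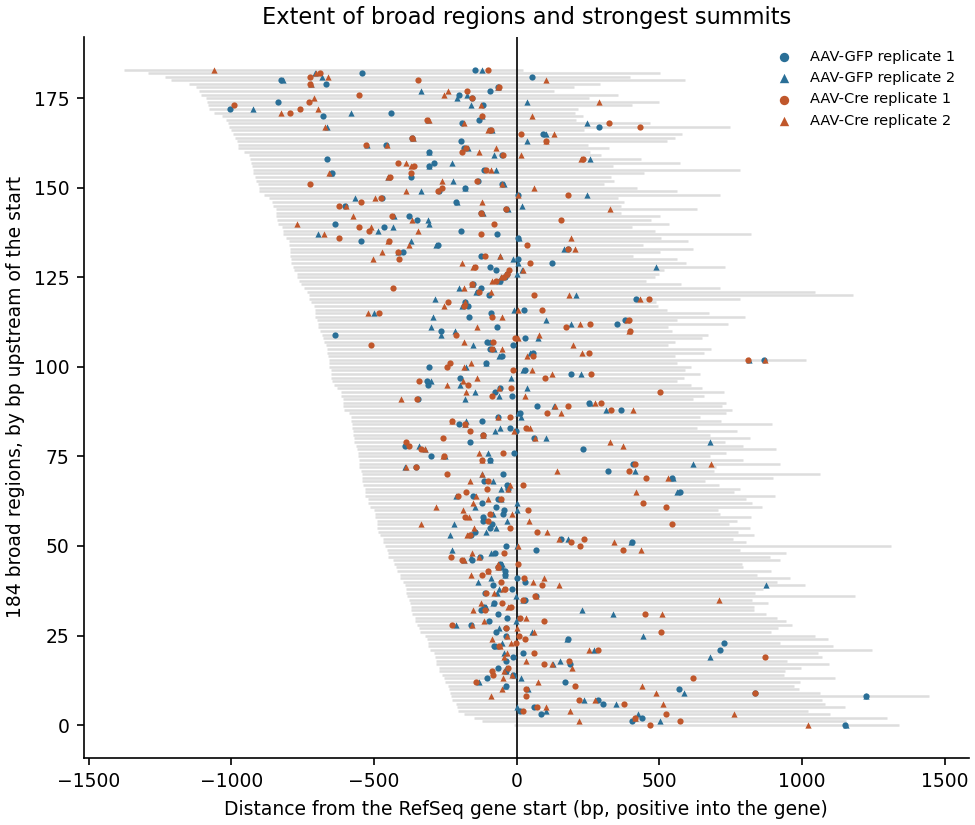
Extent of the 184 broad regions that hold an annotated gene start, 1 grey line per region, ordered by bp upstream of the start, with the strongest summit of each library as a coloured symbol. Distance in bp is positive into the gene; summits gather just upstream of 0 (medians -72.5 to -63.5 bp) while the lines run to both sides.

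Promoters of genes with a broad region at their start were richer in CpG, by median, than those of genes with a narrower one. For each gene the promoter at the outermost start in the promoter table was taken, whether or not the region covered it. An annotated start lay inside 184 of the 205 broad regions with a known strand, so some of these promoters lay outside their region. Because the promoter table holds none of the 17 members on chromosome 18, and the match over all members was under 80%, sequence was described off that chromosome, where 205 of 246 members (83.3%) matched and 199 lay at a start. Their promoters had a median GC content of 66.3% and a median of 27 CpGs in 300 bases. The 4778 promoters at narrower shared regions had 62% and 22, and the 16457 promoters of all protein-coding genes in the table off chromosome 18 had 56.7% and 14. The ratio of observed to expected CpG had medians of 0.834, 0.789 and 0.597 in the same order. It was at least 0.6 in 166 of 199 broad-region promoters (83.4%), in 79.1% at narrower regions and in 49.8% of all. The 34 CpGs of Pik3r1 and 47 of Rap2a printed above lie over the median, and the 13 of St6gal2 well under it.

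Short promoter motifs were counted on both strands of the same 300 bases, as matching letters and not as sites. The TATA box TATAAA occurred in 5.03% of the 199 promoters, 6.09% of those at narrower regions and 13.5% of all. The GC box GGGCGG, the letters bound by SP1, occurred in 72.4%, 69.8% and 47.3%. ETS factor letters, CCGGAAG, showed the largest relative gap to narrower regions among the 12 motifs searched, in 14 promoters (7.04%) against 896 (18.8%) and 12.3% of all. The E-box CACGTG of USF and MYC went the other way, in 27 promoters (13.6%) against 9.94% and 7.97%. Letters of the homeodomain core, TAATTA, which many homeodomain factors recognise, were found in 2.01%, 2.16% and 4.62%. The whole cyclic AMP response element TGACGTCA, bound by CREB, was found in 2.51%, 3.93% and 2.40%, and the Mturn promoter printed above is one that holds it. Its shorter form TGACG, which overlaps the whole element, was found in 34.7%, 34.8% and 24.2%.

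Between the groups, the median shift of the broad regions was close to 0. The shift of a region is the mean percentile of the AAV-Cre libraries minus that of the AAV-GFP libraries, in percentile points, so that a positive shift means a weaker rank with AAV-Cre. Over the 263 regions the median shift was -0.0488 points, with quartiles of -7.96 and 8.06, against -0.0140 over all 14331 shared regions and 1.28 over narrower ones. Both AAV-Cre libraries ranked weaker than both AAV-GFP libraries at 39 broad regions (14.8%), where 19.7% of all shared regions were called by the same rule. Both ranked stronger at 49 (18.6%), where 19.7% of all were called. At the other 175 regions the groups overlapped. With a shift of at least 10 points also required, 30 regions (11.4%) were weaker beside 15.2% of all, and 38 (14.4%) were stronger beside 15.3%. In this ranking, with all 4 libraries, the shares of the broad regions were under the background. The 4 libraries can be split evenly in 3 ways, so the smallest exact permutation p for any region is 0.33 and none can pass 0.05. The median absolute difference between 2 replicates was 8.62 points with AAV-GFP and 10.1 points with AAV-Cre. The median absolute shift was 7.98 points, but it is a difference of means over 2 libraries and is smaller by construction. Ranked by fold enrichment in place of −log10 p, 31 regions (11.8%) were weaker, beside 19% of all shared regions, and 68 (25.9%) were stronger, beside 20%. With 3 libraries the groups separate more easily by construction. Without AAV-GFP replicate 1, 50 of 165 regions were weaker and 50 stronger (30.3% each), beside 32.2% and 31.9% of all. Without AAV-Cre replicate 1, 76 of 220 (34.5%) were weaker and 80 (36.4%) stronger, beside 36.3% and 36.4%. Without AAV-Cre replicate 2, 59 of 217 (27.2%) were weaker and 83 (38.2%) stronger, beside 36.7% and 37%. Without AAV-GFP replicate 2, 43 of 152 (28.3%) were weaker and 61 (40.1%) stronger, beside 33.6% and 34%.

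**Figure D3:**
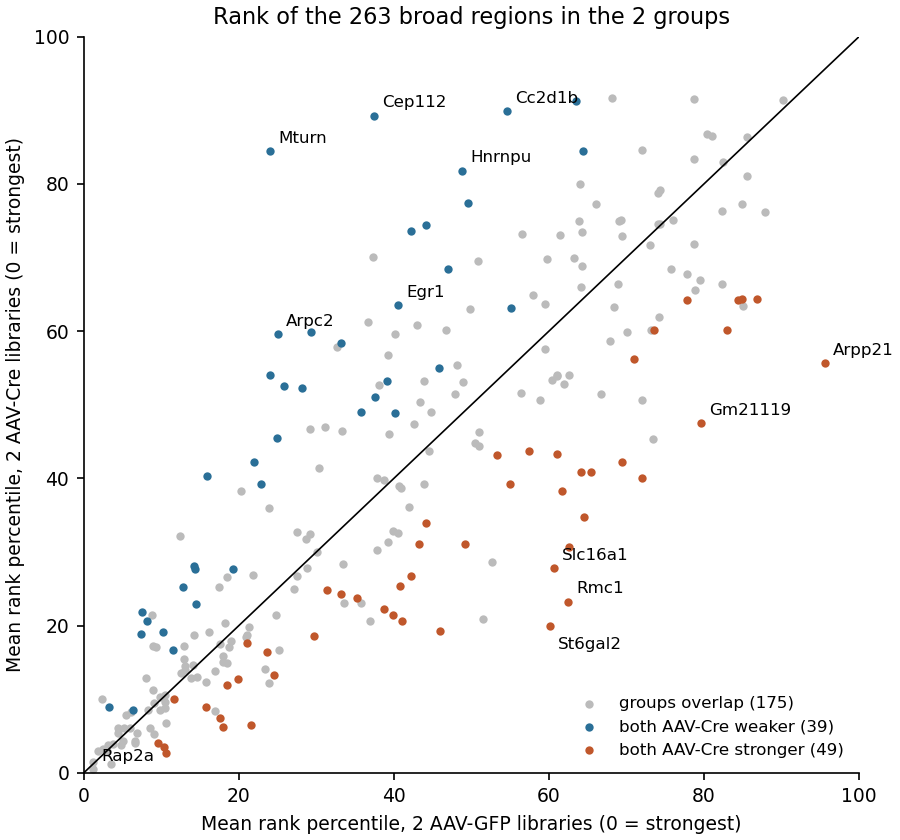
Mean rank percentile of each of the 263 broad regions in the 2 AAV-GFP libraries (horizontal) and the 2 AAV-Cre libraries (vertical), with the line of equal rank; 0 is the strongest. Blue points are the 39 regions weaker in both AAV-Cre libraries, orange points the 49 stronger in both, and grey points the 175 whose groups overlap.

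Mturn had the largest move toward a weaker rank. Its percentiles were 11.6 and 36.4 in the AAV-GFP libraries and 71.1 and 97.9 in the AAV-Cre libraries, and its fold enrichment was 15.0, 8.59, 5.22 and 3.83. The shift was 60.5 points, and the spread within each group was more than 20 points. Cep112, a centrosomal protein, stood at 49.7, 25.1, 97.2 and 81.3 in the same order, a shift of 51.8 points, with fold enrichment of 8.77, 10.4, 4.17 and 5.28. Cc2d1b, a C2 domain protein, moved by 35.3 points, from 63.2 and 46.0 to 92.4 and 87.4. Hnrnpu, a nuclear RNA-binding protein, moved by 33.0 points, from 54.1 and 43.6 to 77.3 and 86.3. Arpc2, a subunit of the actin-nucleating ARP2/3 complex, is called only narrowly: its percentiles were 32.5 and 17.6 with AAV-GFP and 32.7 and 86.6 with AAV-Cre. AAV-Cre replicate 2 alone accounts for most of its shift of 34.6 points.

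In the other direction St6gal2 led with a shift of -40.2 points. It stood at 85.1 and 35.2 in the AAV-GFP libraries and 22.5 and 17.3 in the AAV-Cre libraries. Its fold enrichment was 6.46, 10.04, 9.35 and 10.6. The median fold enrichment over all shared regions was 8.94, 7.98, 6.55 and 6.85 in the same order. Fold values of different libraries are therefore not on 1 scale and are not compared between the groups here. Arpp21, a cyclic AMP-regulated phosphoprotein of neurons, stood at 92.5, 98.6, 38.9 and 72.5, a shift of -39.9 points, with fold enrichment of 5.17, 4.07, 7.38 and 5.77. Rmc1, a regulator of late endosome traffic, stood at 71.3, 53.7, 17.4 and 29.1, with fold enrichment of 6.47, 6.94, 9.15 and 7.66. Slc16a1, the lactate transporter MCT1, stood at 40.0, 81.4, 29.6 and 25.9, with AAV-GFP replicate 2 far from the rest. Its fold enrichment was 10.8, 5.96, 8.20 and 9.07. The multicopy Gm21119 stood at 72.3, 87.0, 57.7 and 37.2. Its fold enrichment was 7.72, 5.61, 5.37 and 6.78.

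Among shared regions at 1 gene end, the balance between the directions differed with width. Below 600 bp, 24.2% of 2040 regions were weaker in both AAV-Cre libraries and 15.6% were stronger. From 1000 to 1199 bp these shares were 21.6% and 17.8% of 573 regions, and from 1200 to 1499 bp 15.9% and 17.7% of 226. At 1500 bp or more, 3 of 37 regions (8.11%) were weaker and 9 (24.3%) stronger. Over all shared regions of any width and place, 19.7% were called in each direction. Over the 6184 narrower regions together, 1451 (23.5%) were weaker and 976 (15.8%) stronger. Shared regions of at least 1200 bp away from any gene end were stronger in 56 of 130 cases (43.1%) and weaker in 11 (8.46%). The libraries are the same in every width class, and the differences between classes were not tested.

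**Figure D4:**
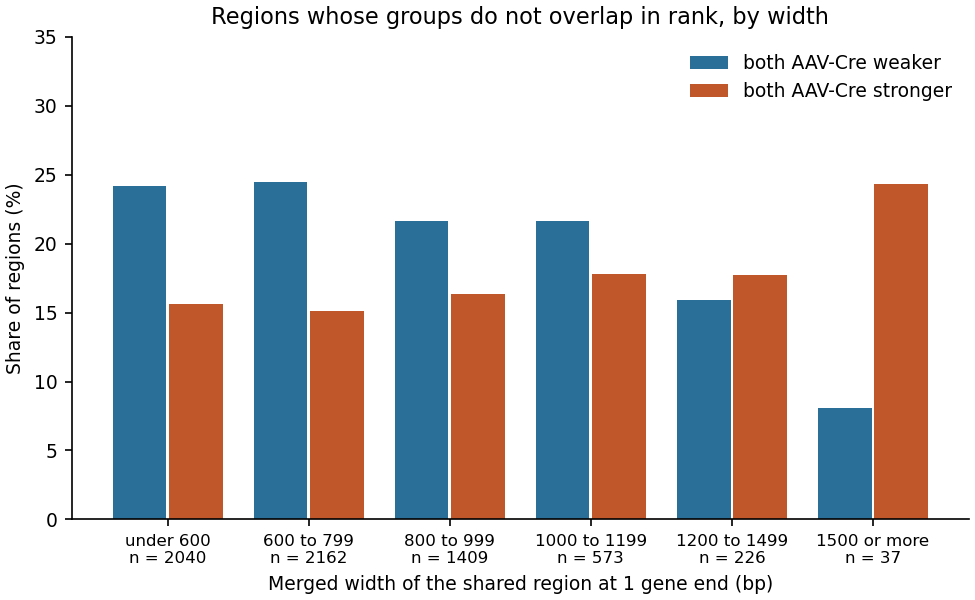
Share in % of shared regions at 1 gene end that ranked weaker (blue) or stronger (orange) in both AAV-Cre libraries than in both AAV-GFP libraries, by merged width in bp, with the number of regions under each pair of bars. The blue share goes from 24.2% under 600 bp to 8.11% at 1500 bp or more, where there are only 37 regions. Over all shared regions 19.7% were called in each direction.

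The stretch covered by peaks had a shorter median in both AAV-Cre libraries. Merged width chose the members, so covered length is partly set by the choice and is given as a description. A single peak of at least 1200 bp lay in 41 and 69 regions with AAV-GFP and in 21 and 26 with AAV-Cre. The median covered length was 979 and 1106 bp in the AAV-GFP libraries and 819 and 872 bp in the AAV-Cre libraries. Over all shared regions it was 478 and 493 bp against 381 and 410 bp. The median difference within a region was -168 bp, against -68.5 bp over all shared regions and -75 bp over narrower ones. These differences are in bp, and broader regions have more bp to lose. Losses relative to the covered length were not compared. Both AAV-Cre libraries covered less than both AAV-GFP libraries at 97 regions (36.9%), beside 36.7% of all shared regions, and more at 15 (5.70%), beside 6.15%. The AAV-GFP lists were also the longer ones, at 57682 and 34100 peaks against 23384 and 26612, and the part of list length in this difference was not tested. When every list was shortened to 22934 peaks by −log10 p, the median difference was -114 bp over the 224 regions that then met the rule. The difference over all shared regions was not taken for the shortened lists. In the authors' deposited list for the AAV-GFP pool, all 263 regions had a peak, the median fold enrichment was 9.45, and the widest peak reached 1200 bp at 193. In the authors' deposited list for the AAV-Cre pool, 262 had a peak, the median was 7.96, and 111 reached 1200 bp. The missing region was that of Alyref2, an mRNA export factor, which was weak in every library at percentiles of 71.5, 76.7, 69.4 and 88.2.

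The 263 genes were sorted by textbook role after the members were known, into 13 roles and a rest of 36 genes. Each count of called genes in a role stands beside 19.7% of all shared regions in each direction, and the roles are small. The 6 genes of translation and the nucleolus had the strongest median, a mean percentile of 9.72. Serbp1 stood at 2.39, 2.53, 1.93 and 4.60, and Ncl, the nucleolar protein nucleolin, at 3.10, 5.72, 3.61 and 7.30, in the order AAV-GFP replicates 1 and 2 and AAV-Cre replicates 1 and 2. The initiation factor gene Eif4g2 lay at 7.79, 5.91, 6.43 and 4.34. Gigyf2, which represses the translation of selected mRNAs, lay far behind these at 32.1, 34.3, 57.8 and 58.9, weaker in both AAV-Cre libraries. Eif1 was the weakest of the role by mean percentile, at 27.6, 59.2, 61.1 and 39.6, and its groups overlapped.

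The 6 chaperone genes had a median of 16.4 and none with groups apart. Vcp, the ATPase that extracts proteins for degradation, stood at 13.3, 6.37, 10.5 and 6.46. Dnajb1 stood at 11.6, 6.52, 7.46 and 11.5, and its promoter was printed above. Hspa8, the constitutive HSP70, was at 13.5, 4.32, 23.6 and 11.0. The cytosolic HSP90 genes were weak in spite of their width, with Hsp90aa1 at 66.5, 72.3, 76.7 and 69.2 and Hsp90ab1 at 82.4, 45.6, 85.4 and 74.6. Among 22 genes of ubiquitin and related modifiers, 4 were weaker and 6 stronger with AAV-Cre, where 19.7% of all shared regions were called in each direction. Ube3a, the E3 ligase of Angelman syndrome, lay at 6.22, 5.76, 5.27 and 6.95 and hardly varied. Usp1, a deubiquitinase, was stronger in both AAV-Cre libraries, at 14.9 and 5.75 against 2.93 and 4.11.

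Of the 18 sequence-specific transcription factors, 7 were weaker in both AAV-Cre libraries and none stronger, where 19.7% of all shared regions were called in each direction. The 7 were Atf4, Thap1, Klf11, Zfp438, Atf2, Egr1 and Mybl1, named after their values were seen. Egr1, an immediate early gene of neuronal activity, stood at 47.1 and 34.0 in the AAV-GFP libraries and 59.3 and 67.7 in the AAV-Cre libraries. Klf11, a Krüppel-like factor, stood at 32.3 and 15.7 against 63.8 and 44.3. Mybl1, a MYB family factor, was weak throughout, at 70.8 and 56.2 against 86.9 and 95.7. Atf4, the factor of the integrated stress response, differed by little, at 6.78 and 5.84 against 7.98 and 9.16. The strongest factor gene, Nr1d2, a nuclear receptor of the circadian clock, stood at 5.96, 4.93, 4.24 and 11.6, and its groups overlapped. The group was sorted with the members in view, and its count has no test.

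In the remaining roles, too, counts stand beside 19.7% called in each direction over all shared regions. The 18 genes of chromatin and transcription cofactors had 1 weaker and 2 stronger members and a median percentile of 30.2. Emsy stood at 3.23, 3.03, 2.61 and 4.97, and Kmt2a, a histone H3 lysine methyltransferase, was among the weaker regions of the role. The 23 genes of RNA binding, processing and decay split into 5 weaker and 6 stronger. Prkra, at 2.50, 3.55, 1.38 and 4.57, was the strongest of them. The 15 small GTPases and their regulators had a median of 18.4 and included several genes of RAP signalling: Rap2a, Rap2b, Rapgef2, an exchange factor, and Garnl3. Rap2b was stronger in both AAV-Cre libraries, at 18.1 and 13.3 against 11.2 and 6.56. The 20 genes of membrane traffic, nuclear transport and lipidation had a median of 22.7, 3 weaker and 5 stronger members. Cplx2, the synaptic complexin of vesicle release, was stronger, at 90.0 and 83.7 against 56.3 and 72.4. The 21 genes of metabolism, mitochondria and glycosylation had a median of 30.2, with 2 weaker and 6 stronger. Oxct1, the enzyme of ketone body use, was at 14.9 and 6.42 against 3.05 and 2.26.

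The 23 kinases, phosphatases and adaptors had a median of 47.7, with 1 weaker and 3 stronger. Ywhag, a 14-3-3 adaptor, was stronger, at 22.8 and 26.2 against 17.1 and 9.44. The 23 genes of the cytoskeleton and cilia had a median of 50.4, with 4 weaker and 5 stronger, and Kif1a, the axonal vesicle motor, stood at 19.7, 11.7, 14.9 and 9.88. The 26 genes of receptors, channels, transporters, adhesion and matrix had a median of 52.5, with 3 weaker and 5 stronger. Atp2b1, a plasma membrane calcium pump, was weaker, at 8.58 and 11.8 against 22.2 and 16. The 6 genes of cell cycle, DNA repair and cell death had a median of 32.6 and 1 weaker member.

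**Figure D5:**
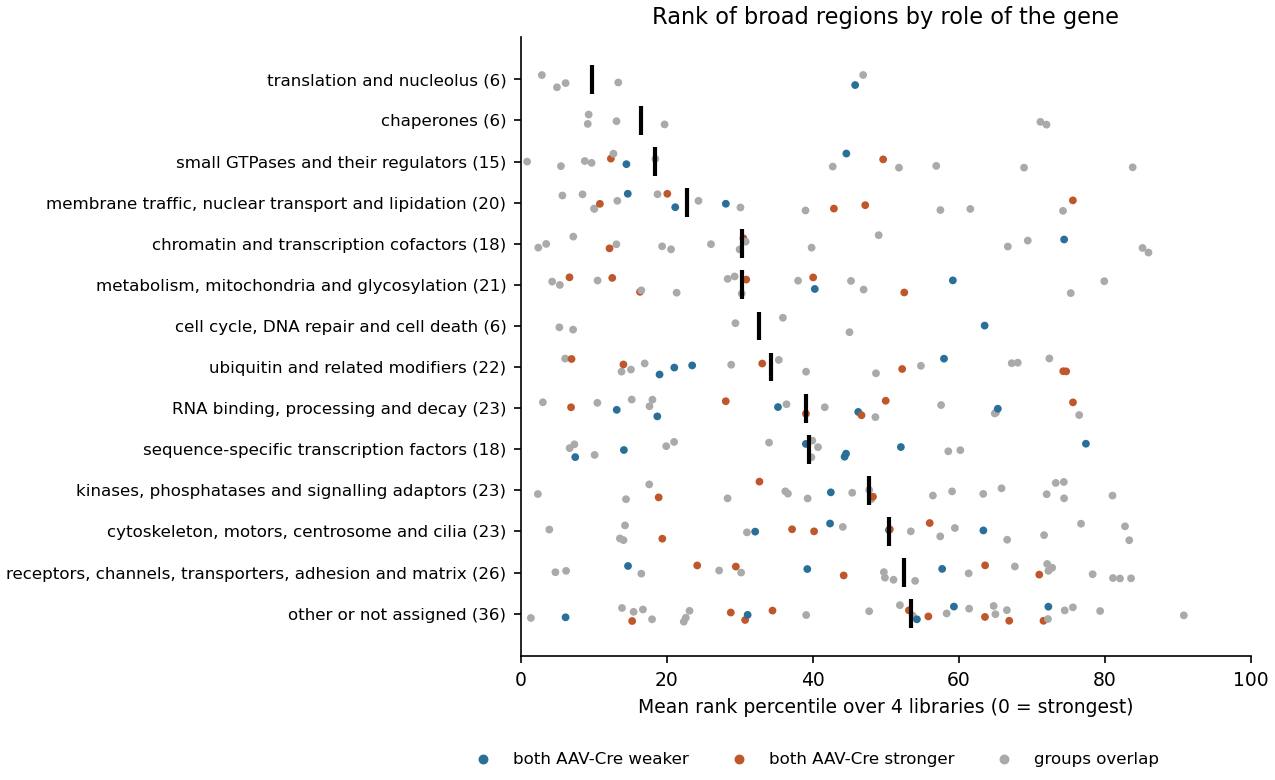
Mean rank percentile over the 4 libraries (horizontal, 0 is the strongest) of every broad region, 1 point per region, by the role of its gene with the number of genes in brackets; the black bar is the median. Blue and orange points are regions weaker and stronger in both AAV-Cre libraries; the medians run from 9.72 for translation and nucleolus to 53.4 for the rest.

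Lists of genes by function held 675 entries in 12 lists, and 304 of their genes had a shared region at 1 gene end, of which 23 (7.57%) were broad, beside 4.08% of all such regions. Protein folding, ubiquitin and proteasome genes gave 8 broad regions of 33 (24.2%), among them those of Ube3a, Atf4, Dnajb1, Hspa8, Ube2d3, Hsp90aa1 and Hsp90ab1. Of these 8 only Atf4 had groups apart. Over all shared regions 19.7% were called in each direction, which stands beside this count and those that follow. Translation machinery gave 4 of 25 (Ncl, Eif4g2, Eif5a and Eif1) and RNA processing 3 of 36 (Hnrnpa3, Srrm1 and Hnrnpu). Chromatin and transcription regulators gave 3 of 47, Setd5, Kmt2e and Kmt2a, all with overlapping groups. Of 38 immediate early and signal-induced genes with a shared region only Egr1 was broad, and of 35 genes of neuronal function only Cplx2. None of 15 neural and glial lineage transcription factors, of 12 astrocyte and oligodendrocyte genes, or of 8 genes of PVH peptides and melanocortin signalling with a shared region was broad. These are counts of few genes, and no enrichment was tested.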

How the data were processed

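ATAC-seq measured open chromatin in 2 AAV-GFP and 2 AAV-Cre libraries, grouped by the labelled treatment. The build was mm10 and MACS2, Bowtie2, Trim Galore and FastQC were run, per the submitters' processing notes. The sources used here give no versions, read filters or peak threshold. The authors deposited 6 peak lists, 1 per library and 1 per group, with a score, a fold enrichment (a ratio to background), −log10 p and −log10 q for each peak. These values are the authors' own; −log10 p and fold enrichment served only to rank or describe peaks within a list. Where a region held several peaks of a library, the largest value was taken.

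Peaks were merged with Python 3.11.15 and pandas 2.3.3. Gene ends came from a RefSeq gene table of GRCm38.p6, and strand and promoter bases from a RefSeq promoter table. A region was called when both libraries of 1 group ranked it stronger than both of the other. The merging and the rank calls were run on simulated lists to check the code. Those lists had equal length and a single peak per region, unlike the real ones, so the check covers the code only. Named regions were the 10 widest, the 10 strongest by mean percentile, the 5 largest moves in each direction among called regions, those next to the width threshold, and members of the gene lists; other examples within roles were chosen after their values were seen. The members, roles and lists were chosen with earlier results of these data known. Confining sequence features to genes off chromosome 18 was decided after the files were seen. Alternatives were other widths, windows, peak thresholds, list lengths, overlaps, rank measures and leaving out each library. Values of some members are not reported here.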

Additional observations from a re-analysis of the deposited data

How the results depend on the processing

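The number of broad regions followed the width rule: 836 at 1000 bp, 37 at 1500 bp, 3 at 2000 bp, and 116 when a single peak of 1200 bp was asked of at least 1 library, a choice made after seeing the data. Under these 4 rules 163 (19.5%), 3 (8.11%), 0 and 10 (8.62%) regions were weaker in both AAV-Cre libraries. Stronger were 151 (18.1%), 9 (24.3%), 3 (100%) and 29 (25%), beside 19.7% of all shared regions in each direction. The median shift was -13.6 points at 2000 bp. The covered length differed by -255.5 bp at 1500 bp. The share at gene starts, among regions with a known strand, was 92.9% at 1500 bp and 99.0% with a window of 2500 bp. At 2000 bp it was 50%, but only 3 regions were left there and not all had a known strand. Leaving out each library in turn gave 152 to 220 regions, a median shift of -0.739 to 0.619 points and a covered length difference of -247 to -109.5 bp. In these runs 43 to 76 regions (27.2 to 34.5%) were weaker, beside 32.2 to 36.7% of all shared regions. Stronger were 50 to 83 (30.3 to 40.1%), beside 31.9 to 37%. The count was 165 without AAV-GFP replicate 1 and 152 without AAV-GFP replicate 2. Same-numbered libraries as pairs (a replicate block) gave the same median shift, -0.0488 points, by construction; no label pairs them. The other 71 values stayed within their tolerance. This was 1.5 times for counts, 1 SD between libraries for shifts and covered length, and 0.05 for the CpG ratio. For the start share it was the 95% Wilson interval (93.8 to 98.7%), taken over regions, which does not measure spread between libraries. Counts and not shares were compared, so 50 weaker of 165 without AAV-GFP replicate 1 passed beside 39 of 263. A median shift of -3.20 points, ranked by fold enrichment, passed as well. Read depth is unknown, and with 2 libraries in a group no difference can pass an exact test.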
